A study of Mus musculus with 33 samples.

Results

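The deposited splicing tables of the Dmpk CTG-repeat mice list changed events in 6 long non-coding RNA genes: Meg3, Rian, Rmst, Hoxa11os, 1300002E11Rik and D330041H03Rik. All their rows were taken by gene symbol from the 20 tables, where Rmst is written RMST_1 and D330041H03Rik was found through its gene ID under an older clone name. They make up 6 of 376 genes and 8 of 549 events in those tables. The events are 7 skipped-exon entries and 1 alternative 3′ splice site. Being listed at all means that an event was selected on its inclusion difference and FDR between expansion and wild type, so those same values chose the genes described.

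Long non-coding RNAs are transcribed and spliced like messenger RNAs but have no known protein product, so a changed exon alters the RNA itself and not a reading frame. Meg3 and Rian lie in the imprinted Dlk1-Dio3 region and are expressed from the maternal chromosome. Rian is also a host transcript for small nucleolar RNAs (snoRNAs), which guide chemical modification of other RNAs. Rmst is a neural transcript whose human counterpart binds the transcription factor SOX2, and Hoxa11os is transcribed from the strand opposite the limb-patterning gene Hoxa11. No role is given here for 1300002E11Rik and D330041H03Rik. RNA from an expanded CTG repeat is known to bind the Muscleblind-like (MBNL) splicing regulators, and this is the background of the study.

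Total RNA was sequenced, after depletion of ribosomal RNA, from 3 tissues of FVB mice that were wild type (Dmpk+/+), +/480 (1 expanded allele) or 480/480 (2 expanded alleles of 480 CTG repeats). They comprised tibialis anterior (TA, a fast leg muscle), myotubes (multinucleate muscle cells differentiated in culture, labelled as derived from the same mice) and choroid plexus (the brain epithelium that secretes cerebrospinal fluid). Each group has 3 labelled libraries, from separate mice, and the same mice of a genotype supplied all its tissues. The sources used here give neither age nor sex, and 12 of the 33 labelled libraries, including +/480 TA and +/480 choroid plexus, are in no splicing table.

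Inclusion stands for the share of transcripts, in percent, with the exon or with its longer form, and is given as library values and as mean ± SD. Every group has n = 3 except 480/480 choroid plexus, whose tables hold 2 values per event (n = 2) without saying which library was left out. The lists carry no library names, so values are given in listed order. To be listed, an event needed at least 5 reads on average, a false discovery rate (FDR) no higher than 0.05 and a change of no less than 10 percentage points. The changes are therefore described with no further test, and with 3 libraries per group the smallest two-sided p of an exact permutation test would be 0.10. The read depth behind a value and the marker genes of each tissue were not analysed here. In these bulk samples, fewer cells of a type and less RNA per cell cannot be told apart.

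The exons involved are shown first, because later values refer to them. They come from the GENCODE M21 transcripts of the mouse reference (mm10), not from the FVB mice. In the 4 skipped exons below, capitals mark either TGCT or TGCC, or else CGCT or CGCC, the 4-base words that MBNL proteins are known to bind, searched on the transcript strand only and counted with overlaps.
Meg3 exon (chr12:109544948-109545041, plus strand): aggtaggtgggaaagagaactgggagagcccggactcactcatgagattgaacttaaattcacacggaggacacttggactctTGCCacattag
Rian exon (chr12:109635394-109635457, plus strand): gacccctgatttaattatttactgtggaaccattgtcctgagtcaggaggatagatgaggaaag
Rmst exon (chr10:92082757-92082975, minus strand): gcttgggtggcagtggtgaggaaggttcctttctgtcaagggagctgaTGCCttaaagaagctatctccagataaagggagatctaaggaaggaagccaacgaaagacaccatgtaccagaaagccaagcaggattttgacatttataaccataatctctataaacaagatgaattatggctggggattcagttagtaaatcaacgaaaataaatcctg
1300002E11Rik exon (chr16:21806971-21807119, plus strand): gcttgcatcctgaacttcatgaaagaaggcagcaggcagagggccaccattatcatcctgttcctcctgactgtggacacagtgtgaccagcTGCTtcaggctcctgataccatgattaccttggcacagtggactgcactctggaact

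The alternative 3′ splice site of Hoxa11os is shown with the end of the preceding intron. Capitals mark the 26 bases that belong to the longer form alone, and each form follows an AG.
Hoxa11os sites (chr6:52246607-52246682, plus strand): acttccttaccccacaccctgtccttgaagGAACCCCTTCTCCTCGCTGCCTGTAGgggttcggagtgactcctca

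The exon of D330041H03Rik is 424 bases long, so only its splice sites are shown, with the intron dinucleotide in capitals.
D330041H03Rik 3′ site (chr17:24413909-24413958, minus strand): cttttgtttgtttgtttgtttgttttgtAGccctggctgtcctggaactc
D330041H03Rik 5′ site (chr17:24413493-24413524, minus strand): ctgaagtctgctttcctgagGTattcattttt

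In myotubes the 3 genes with events all rose, and in choroid plexus and TA the other 3 genes all fell. Meg3 was the 1 gene of the 6 with events in more than 1 comparison. The share of all listed events that moved the same way was 50% in +/480 myotubes and 39.1% in 480/480 myotubes (higher), and 67% in choroid plexus and 42% in TA (lower). With 1 to 3 entries per comparison, the directions of these genes cannot be set apart from those shares.

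Meg3 included its 94-base exon more often in both myotube genotypes. Wild-type myotubes had 0%, 0% and 18.2%, a mean of 6.07% ± 10.5. The 480/480 myotubes had 24.2%, 39.3% and 29.2%, a mean of 30.9% ± 7.69. The groups did not overlap, although the highest wild-type library lay only 6 points below the lowest 480/480 library. The rise was 24.8 points, rank 73 of the 184 skipped-exon events in that comparison, with an FDR of 0.000458 in the authors' deposited table.

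The +/480 myotubes gave a less even picture for the same exon, with 28.8%, 0% and 30.7%, a mean of 19.8% ± 17.2. Of the 3 libraries, 2 lay within the range of the 480/480 libraries, while the second was at 0%, as were 2 wild-type libraries, so the groups overlapped. The rise of 13.8 points is the change closest to the authors' limit of 10 among the 8 events, and the FDR in the authors' deposited table is 0.0278. The mean rests on single libraries: the rise was 23.7 points without the +/480 library at 0%, 9.28 without the first listed, 8.33 without the third listed and 19.8 without the wild-type library at 18.2%. Both Meg3 comparisons use the same wild-type libraries, so the 13.8 and 24.8 points are not independent of each other.

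Rian, of the same imprinted region, had the largest skipped-exon change of +/480 myotubes. Its 64-base exon was included at 35%, 0% and 35% in wild type, a mean of 23.3% ± 20.2. In +/480 myotubes it was at 83.9%, 100% and 100%, a mean of 94.6% ± 9.30. The lowest +/480 library stood 48.9 points above the highest wild-type libraries. The rise of 71.3 points ranked 1 of 69 skipped-exon events, while its FDR in the authors' deposited table, 0.0299, ranked 47 of the same 69. Rian has no event in the 480/480 myotube tables, and whether the genotypes differ at this exon was not tested.

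Hoxa11os had the largest change of all 243 events in 480/480 myotubes. The longer form of its exon (chr6:52246637-52246808, 172 bases against 146 for the shorter form) was at 0% in all 3 wild-type libraries. In 480/480 it was at 65%, 100% and 100%, a mean of 88.3% ± 20.2. The switch was therefore from the downstream to the upstream of the AG sites printed above, by 88.3 points, with a gap of 65 points between the nearest libraries. Its FDR in the authors' deposited table is 3.49e-08. The flanking exon of the event overlaps exons of Hoxa11 on the opposite strand. No annotated Hoxa11 exon overlaps the longer or the shorter form. The labels name a directional library kit, but the sources used here do not say whether strand was used in counting, so reads of Hoxa11os and Hoxa11 in that flanking exon may not be told apart. Hoxa11os has no event in the +/480 tables.

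**Figure D1:**
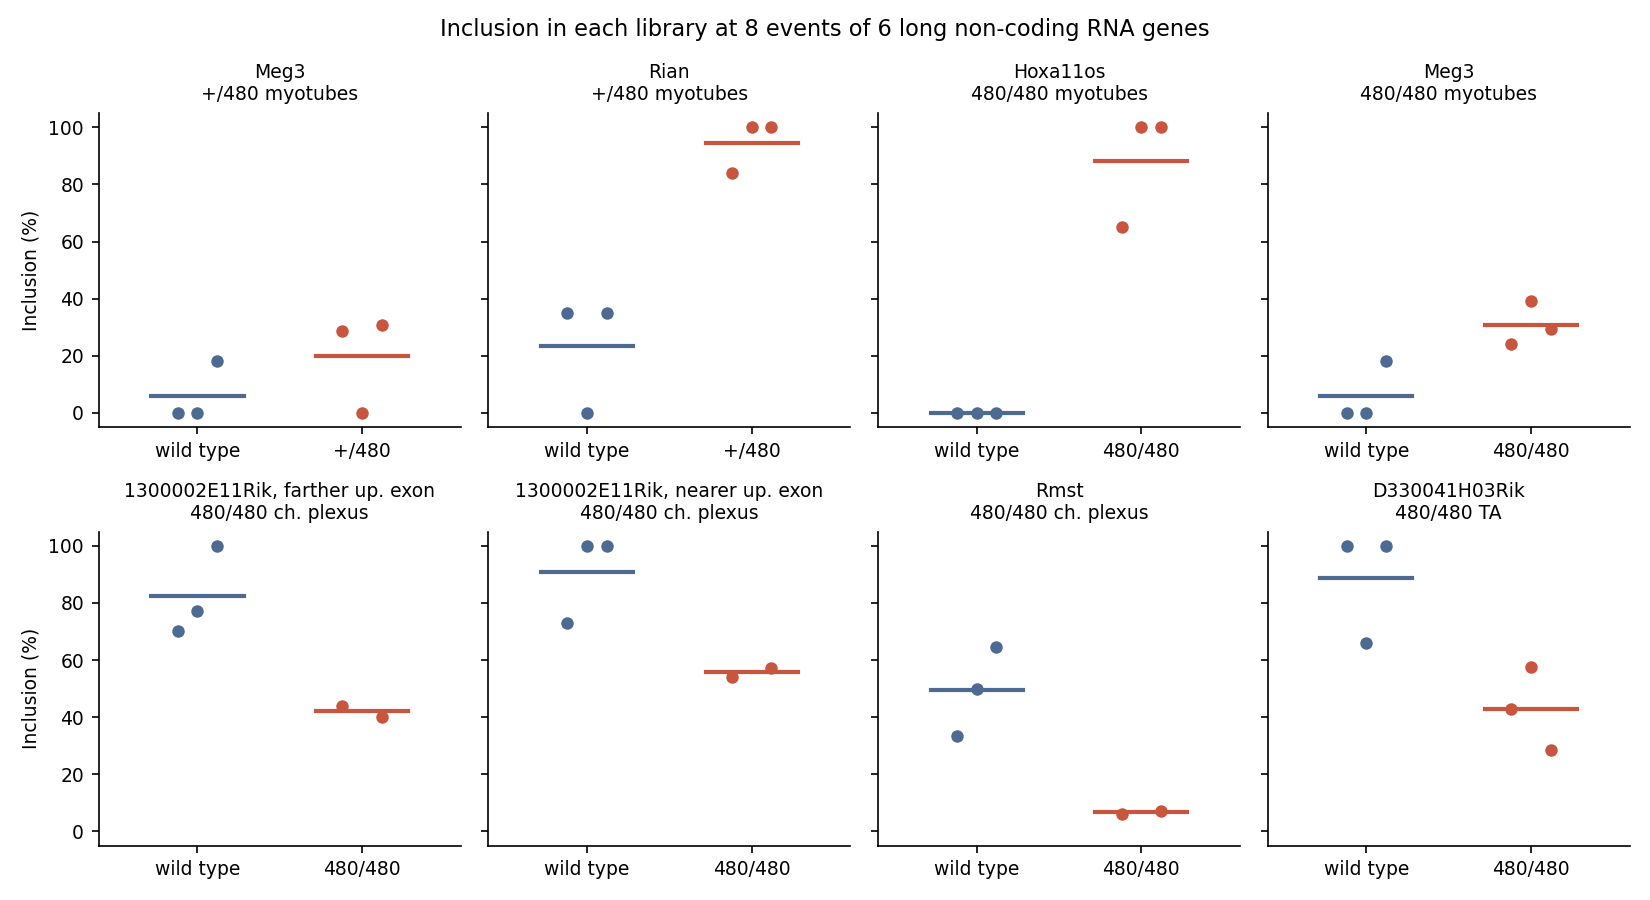
Inclusion (percent, vertical axis) in each library of wild type (blue) and expansion (red) for the 8 events, with points for libraries and bars for group means. Groups are apart in 7 panels and overlap for Meg3 in +/480 myotubes, where the second +/480 library is at 0%.

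Rmst fell in 480/480 choroid plexus to a low level in the 2 libraries listed. Its 219-base exon was included at 33.3%, 50% and 64.7% in wild type, a mean of 49.3% ± 15.7. The 2 libraries of 480/480 were at 6.20% and 7.30%, a mean of 6.75% ± 0.778 (n = 2). The fall was 42.6 points, and 26 points separated the nearest libraries. By the authors' FDR in their deposited table, 1.09e-11, it ranked 1 of 68 skipped-exon events in choroid plexus, and by size it ranked 7. This is the lowest FDR among the 8 events.

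The gene 1300002E11Rik, an intergenic RNA by its annotation type, also fell in 480/480 choroid plexus, at 1 exon listed with either of 2 upstream exons. With the nearer upstream exon (chr16:21802955-21803097), the 149-base exon was at 72.8%, 100% and 100% in wild type and at 54% and 57.3% in 480/480. The means were 90.9% ± 15.7 and 55.7% ± 2.33 (n = 2), a fall of 35.3 points. With the farther upstream exon (chr16:21801281-21801356), it was at 70.1%, 77% and 100% in wild type and at 43.9% and 40.1% in 480/480. The means were 82.4% ± 15.7 and 42% ± 2.69 (n = 2), a fall of 40.4 points. The entries share the exon, the downstream exon and the libraries, so they are not independent measurements. In both the 480/480 libraries lay below every wild-type library, by 15.5 and 26.2 points. The authors' deposited table lists FDRs of 0.044 and 0.048, close to their limit of 0.05. The gene lies within the span of Map3k13 on the same strand, but no Map3k13 exon overlaps the exons of these events.

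D330041H03Rik was the 1 gene of the 6 with an event in TA. Its 424-base exon (chr17:24413505-24413928, minus strand) was at 100%, 66.1% and 100% in wild type, a mean of 88.7% ± 19.6. In 480/480 it was at 42.9%, 57.5% and 28.6%, a mean of 43% ± 14.5. The groups did not overlap, with 8.60 points between the nearest libraries. The fall was 45.7 points, rank 6 of 37 skipped-exon events, with an FDR of 0.0142 in the authors' deposited table.

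**Figure D2:**
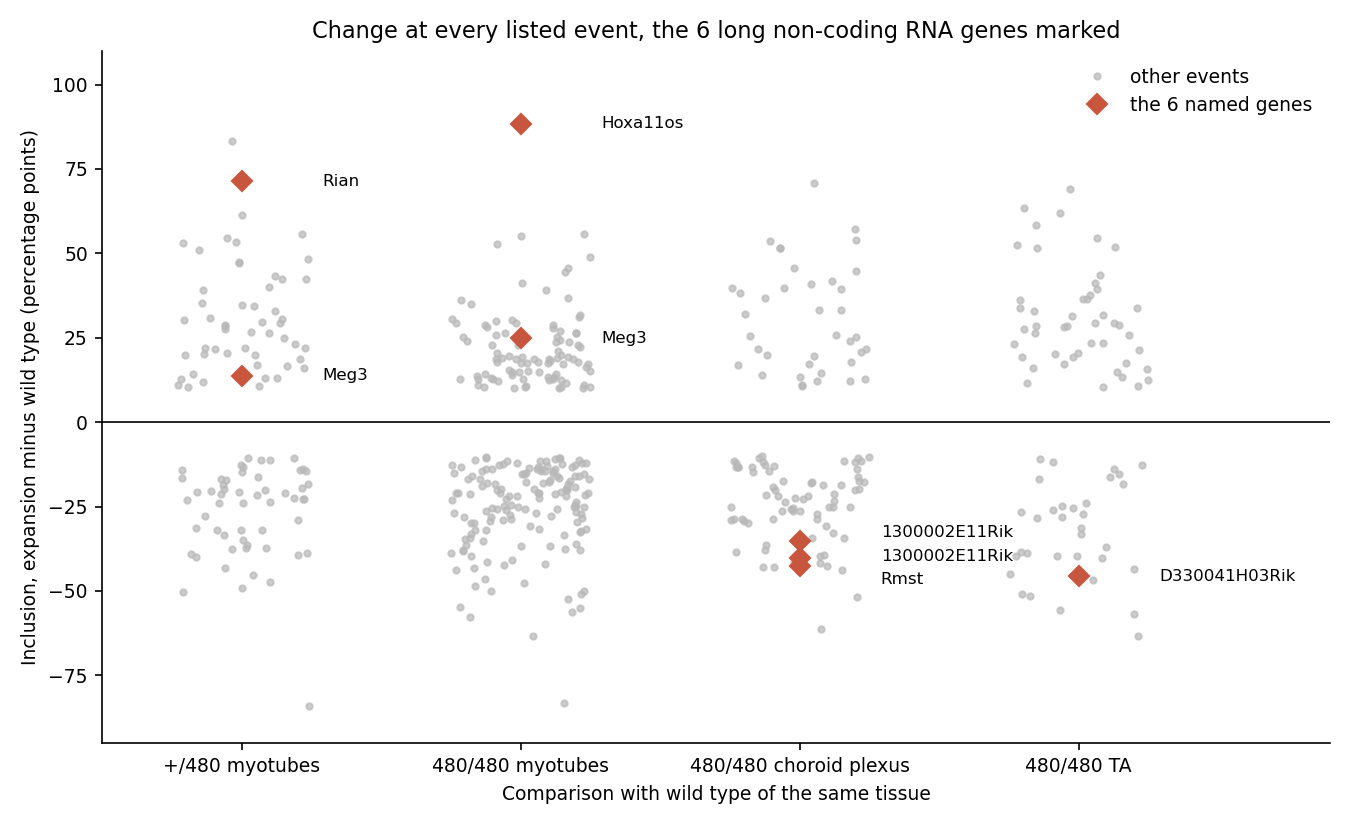
Change in inclusion (expansion minus wild type, percentage points) at each of the 549 listed events by comparison, with grey points for other genes, red diamonds for the 6 genes and no points within 10 of 0 because of the authors' selection. Hoxa11os stands highest of its comparison at 88.3 points. By size, Meg3 ranks 96 of 110 events in +/480 myotubes, at 13.8 points. In 480/480 myotubes it ranks 97 of 243, at 24.8 points.

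Groups were apart at 7 of the 8 events, which is close to what the selected tables show in general. The groups did not overlap at 80.9% of all events in +/480 myotubes (1 of 2 here), 89.7% in 480/480 myotubes (2 of 2), 80% in choroid plexus (3 of 3) and 71.6% in TA (1 of 1). A change of 20 points or more, in either direction, was found at 7 of the 8 events. Among all events that share was 67.3% in +/480 myotubes, 53.5% in 480/480 myotubes, 62.6% in choroid plexus and 75.3% in TA. The median size of the change, whatever its direction, was 23.8, 21.03, 25.2 and 28.8 points over all events in that order. Over these genes it was 42.5, 56.6, 40.4 and 45.7 points, from 2, 2, 3 and 1 events. The first lies midway between 13.8 points for Meg3 and 71.3 for Rian. The second lies midway between 24.8 for Meg3 and 88.3 for Hoxa11os. In choroid plexus, 2 of the 3 events are 1 exon of 1300002E11Rik. With so few events, chosen on these same values, the sizes cannot be set apart from those of all events. The libraries of wild type also varied widely at these genes, since the SD was above the median of its comparison at 7 of the 8 events. These 7 are not independent, because Meg3 has the same wild-type values at 2 of them and 1300002E11Rik gives 2 at 1 exon. A library at exactly 0% or 100% occurred at the events of every gene but Rmst. How common such values are among all listed events was not counted, so they are not set out as a trait of these genes. Without counts, how far few reads contribute to those values was not tested.

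**Figure D3:**
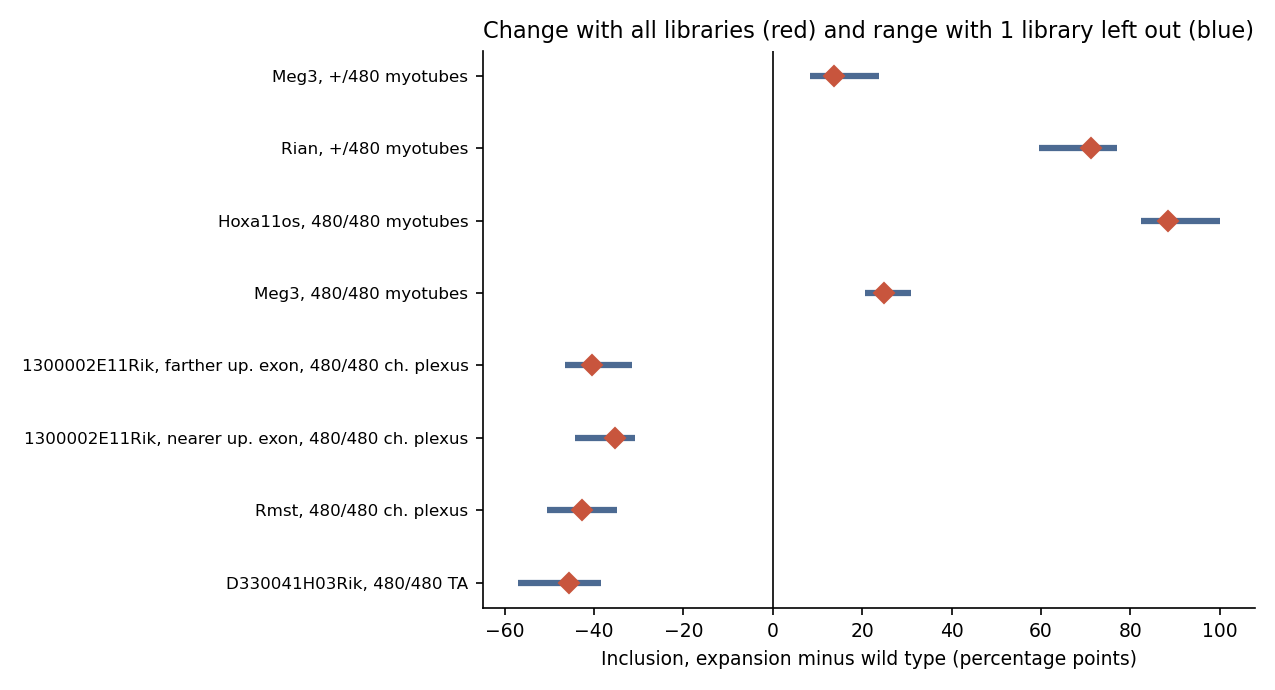
Change in inclusion (expansion minus wild type, percentage points) for each event with all libraries (red diamond) and the range over leaving out each library once (blue line). No range crosses 0, and relative to its own size the range is widest for Meg3 in +/480 myotubes, from 8.33 to 23.7 points.

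The changed exons differ in length and setting. The 5 skipped exons of 64, 94, 149, 219 and 424 bases compare with a median skipped-exon length of 108 bases in +/480 myotubes, 87.5 in 480/480 myotubes, 115 in choroid plexus and 120 in TA. The intron before the Rian exon was 8240 bases and that before the Meg3 exon 205. In the direction of transcription, the Rmst exon is followed by an intron of 7083 bases. In GENCODE M21, 2 Meg3 transcripts join the exon to both of its listed neighbours and 1 transcript skips it. For Rian, 2 annotated transcripts join the neighbouring exons directly and none holds all 3 exons together. For Rmst and for both listings of 1300002E11Rik, neither form is annotated with exactly these exons. For Hoxa11os, 1 transcript joins the flanking exon to the shorter form and none to the longer. For D330041H03Rik, 1 transcript holds the exon between its listed neighbours and none skips it. The sources used here do not name the annotation that the authors used.

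**Figure D4:**
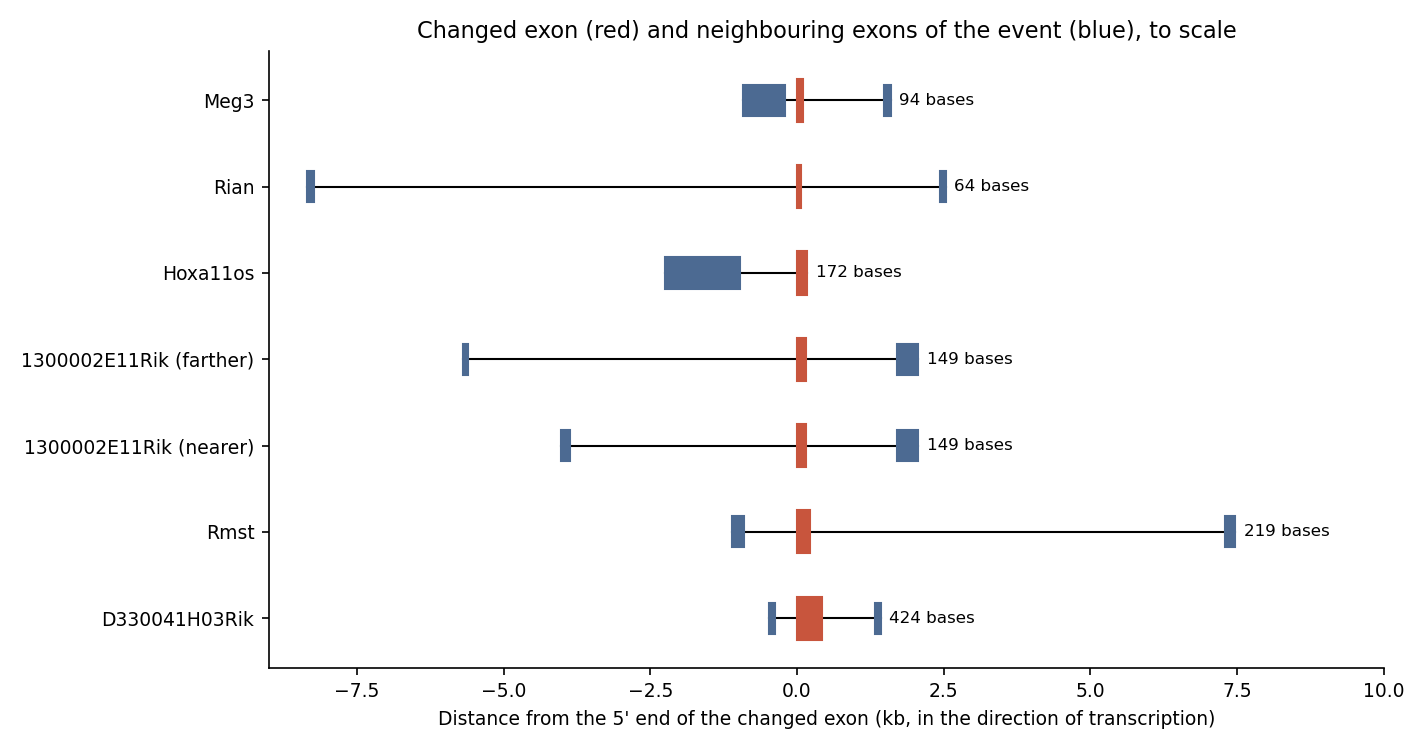
The changed exon of each event (red) with the neighbouring exons listed for it (blue), drawn to scale along the distance from the 5′ end of the changed exon (kb, horizontal axis) in the direction of transcription. Introns range from 205 bases before the Meg3 exon to 8240 before the Rian exon, and 1300002E11Rik appears with both of its upstream exons.

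The base composition and the searched words were compared with exons of annotated long non-coding RNA genes within 10% of the same length. The GC content was 48.9% for the Meg3 exon, 42.2% for Rian, 41.6% for Rmst, 52.3% for 1300002E11Rik, 51.2% for D330041H03Rik and 59.3% for the longer Hoxa11os exon, against medians of 47.6% to 49.2% at like lengths. The Rian exon held none of the searched words, and 44.2% of 2081 exons of like length held at least 1. The exons of Meg3, Rmst and 1300002E11Rik held 1 word each, and 68.2%, 93.4% and 83.5% of exons of like length held at least 1. The Hoxa11os exon held 6 words, a count reached by 5.7% of 4637 exons of like length, and 2 of the 6 lie in the 26 bases of the longer form. The D330041H03Rik exon held 11, reached by 9.9% of 1839 exons of like length. At least 1 word was found in 90.6% and 98.6% of the exons of like length for Hoxa11os and D330041H03Rik. The exons of like length were not matched on GC content, and introns were not searched. A match is a description of these letters, and no binding was measured. Where the transcripts also cover the intron side, all 3 of the 3′ splice sites read (Meg3, Rian and D330041H03Rik) end the intron in AG, and all 4 of the 5′ sites read (the same genes and Rmst) begin it with GT.

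Several of these RNAs host small RNAs. In GENCODE M21, Rian spans 13 snoRNA genes and 4 microRNA genes, Meg3 spans 2 microRNA genes and Rmst spans 2. The introns of the Rian event hold 3 of those snoRNA genes, Gm24564 and Gm23474 before the skipped exon and AF357425 after it. The exon upstream of the Meg3 event holds the microRNA gene Mir1906-1, and its mature product is shown with the seed (bases 2 to 8) in capitals, from RefSeq on GRCm38.p6.
mmu-miR-1906 (chr12:109544588-109544609, plus strand): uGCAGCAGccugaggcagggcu
This sequence lies in an exon that both forms of the Meg3 event keep. The levels of these small RNAs were not analysed here.

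A list of 59 names of well-known long non-coding RNA genes, Rmst among them, was also looked up by symbol among the listed events. Of these names, 53 are in the annotation. Apart from Rmst, described above, 2 had an event, both retained introns in TA. Gas5, a snoRNA host gene, had retention of an intron (chr1:161036820-161037164, with its exons) at 43.1%, 30.6% and 37.1% in wild type and at 54.4%, 60.6% and 56.2% in 480/480, a rise of 20.1 points (authors' deposited table, FDR 0.0286). Ftx, a regulator of Xist in X inactivation, had retention at 38.2%, 57% and 48.1% in wild type and at 100%, 67% and 100% in 480/480, a rise of 41.2 points (authors' deposited table, FDR 0.00447). The groups did not overlap at either. None of 8 protein-coding neighbours had an event, among them Dlk1, Rtl1 and Dio3 of the imprinted region and Hoxa11 beside Hoxa11os. Those 8 include no neighbour of 1300002E11Rik or D330041H03Rik. Genes without a listed event may have had too few reads for the authors' filter, so their absence does not show unchanged splicing.

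By GENCODE M21 annotation type, 12 genes other than the 6, with 18 events, are non-coding, and Gas5 and Ftx are among them. Of these genes, RefSeq types Tmem134 and Sptbn5 as protein-coding, with 4 of the events. The other 10 genes have 14 events, 5 higher and 9 lower in expansion. In choroid plexus 7 of their 8 events, from 6 genes, fell, beside the 67% of all choroid plexus events that fell. In TA all 3 of their events rose, while 42% of all TA events fell. In 480/480 myotubes 1 rose and 1 fell, and in +/480 myotubes the 1 event fell. Firre, an X-linked nuclear RNA named here after its values were seen, had events in both +/480 myotubes and choroid plexus. A 5′ splice-site choice averaged 96.5% ± 6.06 in wild-type and 75.1% ± 12.9 in +/480 myotubes with overlapping libraries, and 2 exons in choroid plexus fell by 10.1 and 10.5 points.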

How the data were processed

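The submitters' processing notes name FastQC, STAR and mm10 without versions, and the sources used here do not name the splicing caller. Events were filtered by the authors at a minimum of 5 reads on average, a maximum FDR of 0.05 and a minimum difference of 10 percentage points, per the file headers. The deposited inclusion values are fractions from 0 to 1 per library, and the authors' p-values and FDRs were left as they are. Replicates are separate mice, per the labels.

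Values were expressed in percent, and a change is the expansion mean minus the wild-type mean. These lay within 0.0333 points of the deposited differences. Genes, exons and transcripts came from GENCODE mouse M21, in which each changed exon is annotated, and microRNAs from RefSeq. The 6 genes, the gene list and the descriptions were chosen with earlier results of these data known. All events of the 6 genes are named, other listed genes only where they had an event. Counts and depth were not used, so no counting interval is given. The alternatives were the median, leaving out each library, a stricter FDR, a larger change and 1 entry per exon. The calculation was tested on simulated data with groups of 3. The simulated libraries varied less than the wild-type libraries at most of these events and were not set at 0% or 100%. The test therefore does not cover events with such values or with groups of 2. Python 3.11.15, NumPy 2.4.6 and matplotlib 3.10.9 were used.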

Additional observations from a re-analysis of the deposited data

How the results depend on the processing

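No change reversed its direction under the median or with any 1 library left out. Leaving out single libraries gave 59.6 to 77.1 points for Rian, 82.5 to 100 for Hoxa11os, 20.6 to 30.9 for Meg3 in 480/480 myotubes and 8.33 to 23.7 for Meg3 in +/480 myotubes, whose median change was 28.8 points. The falls ranged from -50.6 to -34.9 points for Rmst, from -46.5 to -31.6 and from -44.4 to -30.8 for the entries of 1300002E11Rik, and from -57 to -38.5 for D330041H03Rik. At an FDR of 0.01 or less, 0 of 2 events remained in +/480 myotubes, 1 of 3 in choroid plexus (Rmst) and 0 of 1 in TA. At a change of 20 points or more, 1 of 2 remained in +/480 myotubes. No paired analysis was possible because the listed values carry no replicate numbers and the groups are separate mice. The number of reads behind each value is unknown, so what depth limits could not be assessed.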
